A study of Mus musculus with 12 samples.

Results

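The 10 genes described here encode proteins that join, divide or remove mitochondria: Mfn1, Mfn2 and Opa1 (fusion), Dnm1l, Fis1, Mff and Mtfp1 (fission), and Pink1, Fundc1 and Bnip3l (mitophagy, the removal of mitochondria by autophagy). They were taken by gene name from a table of 17752 genes, and all 10 were found. Mitochondria in muscle fibers form a network that is reshaped continuously. Mitofusins tether and merge the outer membranes of neighboring organelles and Opa1 merges the inner membranes, whereas Dnm1l (also called Drp1) assembles on receptors of the outer membrane and constricts it until the organelle divides. Damaged fragments are marked for autophagy by the kinase Pink1 or are bound directly to the forming autophagosome by receptors of the outer membrane such as Fundc1 and Bnip3l.

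RNA was sequenced from the extensor digitorum longus (EDL), a fast hindlimb muscle, of male mice in 4 groups of 3 libraries. Mice carried floxed Nrip1 alleles, Nrip1 being the gene for the nuclear receptor corepressor RIP140. In strNrip1-/- mice a Cre transgene under the muscle creatine kinase promoter, active in heart as well as skeletal muscle, targeted these alleles, and littermates without Cre served as WT controls. Both genotypes were kept sedentary or given running wheels for 8 weeks from 8 weeks of age, mice that ran little were removed from the training arm, and the question was how loss of RIP140 and training each shape the muscle. The labels do not say whether replicates came from separate animals, so the p-values measure the spread between these libraries.

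Nrip1 itself went against the labels. Its level was 3.33 ± 0.689 FPKM (fragments per kilobase of transcript, scaled to sequencing depth; mean ± SD, n = 3) in the sedentary WT libraries and 15.5 ± 0.680 FPKM in the sedentary strNrip1-/- libraries, and 3.62 ± 1.12 against 17.4 ± 3.02 FPKM after training. The difference was +2.08 in log2 units in sedentary muscle (SE 0.198; limma, adjusted p = 2.77e-04). A gene-level value does not separate reads of the floxed exon from those of the remaining exons, and exon-level values were not analysed here. In the same sedentary libraries 20 of 20 nuclear genes for mitochondrial proteins had higher values in those labelled strNrip1-/-. By the rule given below 8 of them were called, against 1.92% of all genes tested called higher. Of 10 fast fiber genes 9 had lower values (1 called), and of 8 slow fiber genes 6 had lower values (0 called). Whether the labels match the genotypes was not tested. The libraries are named by their labels, and every direction given below is that of the libraries labelled strNrip1-/- relative to those labelled WT.

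The step of 1 fragment in the FPKM of lowly expressed genes gave a scaling depth of 19960000 to 29180000 fragments per library. This equals the fragments held only if FPKM were scaled to the fragment count, which is not stated. The tissue label was met: 10 fast fiber genes summed to between 100983 and 156565 FPKM per library and 8 slow fiber genes to between 116 and 722 FPKM. The slow fiber sum was highest in labelled WT trained library 2 (722 FPKM), against 163 and 116 FPKM in the other WT trained libraries. Mitochondrially encoded genes took 43.7 ± 1.35% of all FPKM in sedentary WT, 52.3 ± 0.918% in sedentary strNrip1-/-, 46.0 ± 1.92% in trained WT and 45.0 ± 1.12% in trained strNrip1-/- libraries (n = 3 each). In bulk muscle, fewer cells of a type and less RNA per cell cannot be told apart.

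The sequence upstream of the mitofusin gene Mfn1, which was called for genotype, and of its relative Mfn2, which was not (values below), is shown. In the GRCm38 annotation Mfn1 (ENSMUSG00000027668) lies on the plus strand at chr3:32529465-32579239 and Mfn2 (ENSMUSG00000029020) on the minus strand at chr4:147873599-147904704. The 250 bases before an annotated RefSeq start of each (GRCm38.p6, written 5′ to 3′ on the strand of the gene) are given with the match to the ETS core CCGGAAG, the element bound by GABPA and other ETS factors, in capitals. The Mfn1 stretch is chr3:32529232-32529481 and the Mfn2 stretch is chr4:147904910-147905159.
Mfn1: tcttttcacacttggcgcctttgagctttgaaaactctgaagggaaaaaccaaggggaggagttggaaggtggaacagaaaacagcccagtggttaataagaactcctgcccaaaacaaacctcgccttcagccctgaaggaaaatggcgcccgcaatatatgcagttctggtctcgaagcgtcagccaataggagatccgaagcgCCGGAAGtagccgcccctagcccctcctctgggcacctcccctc
Mfn2: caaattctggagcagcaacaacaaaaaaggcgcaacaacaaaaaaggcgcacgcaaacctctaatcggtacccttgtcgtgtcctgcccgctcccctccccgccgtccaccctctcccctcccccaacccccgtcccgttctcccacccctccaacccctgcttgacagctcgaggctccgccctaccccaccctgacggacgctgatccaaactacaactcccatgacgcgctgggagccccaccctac
The Mfn1 stretch held 1 match, 44 bases before the start, and 10 CpG dinucleotides. Its last 17 bases lie within the gene span given above, in exon. The Mfn2 stretch, which lies upstream of the gene span given above, held no match and 16 CpG dinucleotides. Mfn2 also had annotated starts with stretches at chr4:147904699-147904948 and chr4:147904662-147904911. These held no match, with 22 and 25 CpG dinucleotides, and 6 and 43 of their bases lie in exon.

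RefSeq promoter windows of 300 bases, 250 before and 50 after a start, were found for 9 of the 10 genes (14 windows). Both strands were searched for 4 motifs, which do not contain one another. CCGGAAG was present in windows of Mfn1, Fis1 and Dnm1l and in 8.86% of all 32851 windows. The NRF1 core GCGCATGCG was present in the Opa1 window alone among these genes and in 1.75% of all windows. The ERR element AAGGTCA (4.72% of all windows) and the E-box CACGTG (7.15%) were found in none of the 14 windows. These matches describe letters in a window and not binding. Fis1 and Dnm1l were not called for genotype (values below), and the part of the matches in the genotype differences was not tested.

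Pink1 had the highest level of the 10 genes, with a mean of 508.8 FPKM over the 12 libraries (range 397 to 576), above 98.9% of the genes tested. Mfn2 followed at 177 FPKM (160 to 202), then Fis1 at 132 (113 to 152), Mfn1 at 109.7 (86.6 to 136), Mff at 70.7 (64.8 to 79.0), Mtfp1 at 56.3 (44.6 to 69.1), Bnip3l at 36.6 (28.3 to 45.6), Dnm1l at 20.3 (18.00 to 24.9), Opa1 at 17.3 (15.1 to 19.2) and Fundc1 at 13.3 (10.8 to 15.3). FPKM is a level per transcript length, so the kinase Pink1 stood well above both mitophagy receptors, and the mitofusins above the inner-membrane gene Opa1. Pink1 and Mfn2, Mfn2 and Fis1, Mfn1 and Mff, and Bnip3l and Dnm1l did not overlap over the 12 libraries, whereas the other neighbors in this order did. None of the 10 genes spanned more than 1.61-fold between its lowest and highest library, which was the span of Bnip3l.

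**Figure D1:**
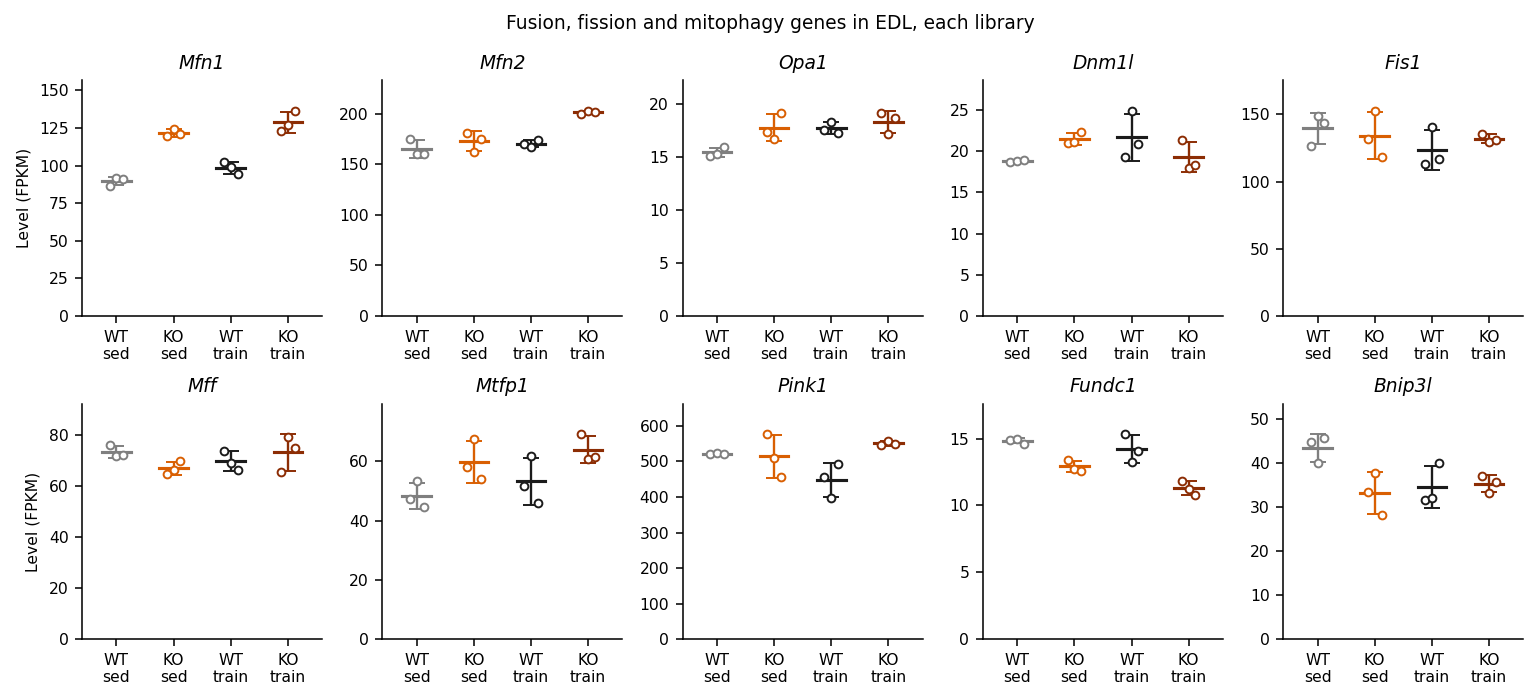
Level of each gene in every library (FPKM, linear axis from 0), with open circles for the 3 libraries of a group, a line for the mean and bars for the SD. WT and KO are the libraries labelled WT and strNrip1-/-, sed is sedentary and train is trained. Mfn1 is separated by genotype in both training states, from 86.6 to 102 FPKM in WT and from 119.8 to 136 FPKM in KO libraries.

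The first comparison was of genotype. Mfn1 was the one gene of the 10 that was called, as higher in strNrip1-/- libraries, in both sedentary and trained muscle, and Fundc1 was called lower in trained muscle. A gene was called where the Benjamini-Hochberg adjusted p of limma, over the 12744 genes averaging 0.5 FPKM or more, was under 0.05 and the fold change of FPKM + 0.5 was over 1.2. By this rule 1 of the 10 genes was called in sedentary muscle (3.51% of all genes tested), 2 in trained muscle (5.98%) and 1 in the genotype difference averaged over training (8.8%). The median log2 difference of the 10 genes was 0.02 in sedentary and 0.08 in trained muscle, against 0.00 and 0.01 over all genes. Differences lay on both sides of 0, with 5 of the 10 above and 5 below in sedentary muscle and 8 above and 2 below in trained muscle, whether or not they passed the test. In sedentary muscle 7 of the 10 had libraries that did not overlap between genotypes (20.7% of all genes did not): Mfn1, Opa1, Dnm1l and Mtfp1 were higher and Mff, Fundc1 and Bnip3l lower. In trained muscle 4 did not overlap (27.3% of all genes), with Mfn1, Mfn2 and Pink1 higher and Fundc1 lower.

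**Figure D2:**
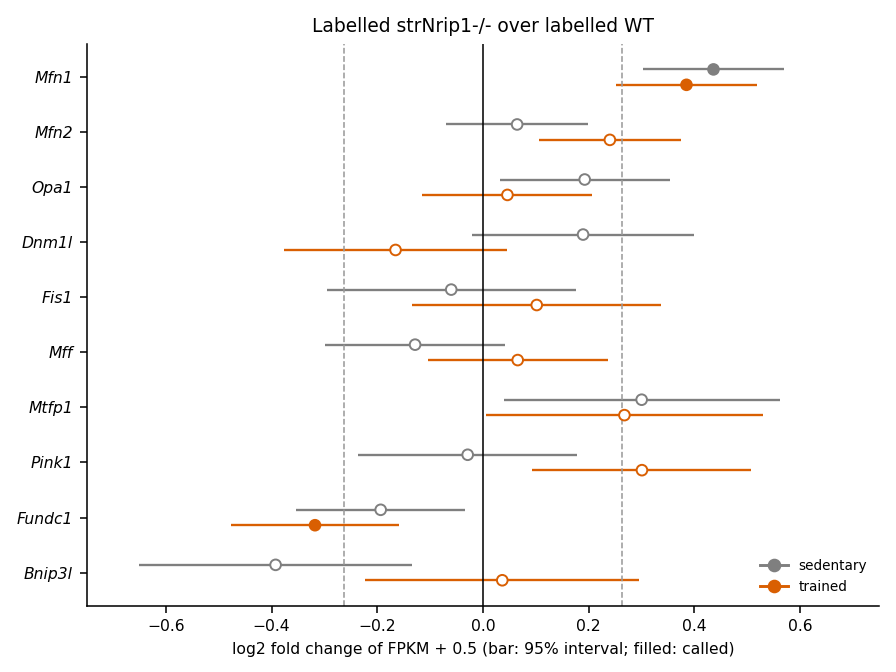
Genotype difference of each gene, as log2 fold change of FPKM + 0.5 with its 95% interval, in sedentary (gray) and trained (orange) muscle, with 3 libraries per group. Filled circles were called and dashed lines mark the 1.2-fold threshold. The Mfn1 intervals lie above 0 in both states, from 0.30 to 0.57 and from 0.25 to 0.52.

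Among the fusion genes, Mfn1, the mitofusin with the stronger tethering activity, stood at 86.6, 92.0 and 91.0 FPKM in the sedentary WT libraries and at 119.8, 124 and 121 FPKM in the sedentary strNrip1-/- libraries. After training it stood at 102, 99.1 and 94.1 FPKM in WT and at 123, 127 and 136 FPKM in strNrip1-/- libraries. Each strNrip1-/- library was above each WT library, whatever the training state (6.19% of all genes separated by genotype in this way, in either direction). The sedentary difference was 1.35-fold (log2 0.44, SE 0.0607, limma adjusted p = 0.0030) and the trained difference 1.31-fold (log2 0.39, SE 0.0607, limma adjusted p = 0.00466). Both calls were kept without any 1 library. With each library scaled to the same FPKM sum over all genes, the mitochondrially encoded ones included, the sedentary difference was 0.28 (limma adjusted p = 0.0681), where the median of all genes moved to -0.14 and Mfn1 stood 0.42 above it. With the same sum over nuclear genes it was 0.52 (limma adjusted p = 0.00426).

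Mfn2, which also links mitochondria to the endoplasmic reticulum, was not called in either training state. Its sedentary levels were 175, 160 and 161 FPKM in WT and 181, 162 and 175 FPKM in strNrip1-/- libraries, which overlapped (log2 0.06, SE 0.0613, limma adjusted p = 0.700). Its trained levels were 169.6, 167 and 174 FPKM in WT and 199.99, 202 and 202 FPKM in strNrip1-/- libraries. The trained libraries did not overlap and the difference was 1.18-fold (log2 0.24, limma adjusted p = 0.0424), below the fold threshold. With equal FPKM sums it was 0.30 over all genes and 0.28 over nuclear genes (limma adjusted p = 0.1403 and 0.167). The difference between the 2 genotype effects was 0.18 (SE 0.0868), with a limma adjusted p of 0.655.

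Opa1, the inner-membrane GTPase that also holds cristae in shape, was at 15.1, 15.3 and 15.9 FPKM in sedentary WT and 17.3, 16.7 and 19.2 FPKM in sedentary strNrip1-/- libraries. These did not overlap, and the difference of 0.19 (SE 0.0732) did not pass the test (limma adjusted p = 0.210). The trained libraries overlapped, at 17.2 to 18.3 FPKM in WT and 17.1 to 19.1 FPKM in strNrip1-/-. Of the 3 fusion genes Mfn1 alone was called, and the differences of the 3 were not tested against each other.

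Among the fission genes none was called for genotype in either training state. Dnm1l, the GTPase that divides the organelle, was at 18.7, 18.8 and 18.9 FPKM in sedentary WT and 21.04, 21.1 and 22.3 FPKM in sedentary strNrip1-/- libraries, a difference of 0.19 (SE 0.0958, limma adjusted p = 0.365). In trained muscle it was at 19.3, 24.9 and 20.9 FPKM in WT and 21.3, 18.00 and 18.4 FPKM in strNrip1-/- libraries, a difference of -0.17 (limma adjusted p = 0.365). The strNrip1-/- libraries were thus all above WT at rest, and overlapped them after training. The highest value, 24.9 FPKM, came from the WT trained library with the slow fiber sum of 722 FPKM, and the part of fiber type in it was not tested.

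Mtfp1, an inner-membrane protein linked to fission, was at 47.3, 53.3 and 44.6 FPKM in sedentary WT and 57.9, 67.6 and 53.9 FPKM in sedentary strNrip1-/- libraries. The trained values were 51.8, 61.8 and 46.1 FPKM in WT and 69.1, 60.8 and 61.6 FPKM in strNrip1-/- libraries. Means were higher in strNrip1-/- in both states, without overlap in sedentary muscle and with overlap in trained muscle. The difference averaged over training was 0.28 (SE 0.0841) and lay just outside the threshold (limma adjusted p = 0.0534). In trained muscle Mtfp1 was called with equal FPKM sums over all genes (log2 0.33, limma adjusted p = 0.0233) or over nuclear genes (log2 0.31, limma adjusted p = 0.0494), and in sedentary muscle with the latter (log2 0.38, limma adjusted p = 0.0195).

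Mff, the main outer-membrane receptor for Dnm1l, was at 71.6 to 75.9 FPKM in sedentary WT and at 64.8 to 69.7 FPKM in sedentary strNrip1-/- libraries (log2 -0.13, SE 0.0775, limma adjusted p = 0.478). Its trained libraries overlapped, at 66.2 to 73.9 and 65.3 to 79.0 FPKM. Fis1, an outer-membrane adaptor, overlapped between genotypes in both states, with 126 to 149 against 118 to 152 FPKM at rest and 113 to 140.3 against 129.6 to 136 FPKM after training. Mff and Dnm1l each share exon sequence with a gene on the opposite strand (195 and 243 bases), and the counting is not stated to use strand, so reads of the pairs cannot be told apart.

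Among the mitophagy genes, Fundc1, an outer-membrane receptor that binds the autophagosome protein LC3 and is encoded on the minus strand at chrX:17556564-17572325, was at 14.9, 15.0 and 14.6 FPKM in sedentary WT and 13.4, 12.8 and 12.6 FPKM in sedentary strNrip1-/- libraries. After training it was at 15.3, 13.2 and 14.1 FPKM in WT and 11.9, 11.2 and 10.8 FPKM in strNrip1-/- libraries. Within each training state the strNrip1-/- libraries were all below the WT libraries. The trained level fell by 19.8% (log2 -0.32, SE 0.0727, limma adjusted p = 0.0274), and the sedentary difference was -0.19 (limma adjusted p = 0.203). The trained call was lost without WT trained library 1 (adjusted p = 0.0997) or 3 (0.0813), or without strNrip1-/- trained library 2 (0.0908) or 3 (0.113), with log2 differences of -0.26 to -0.32 in limma. It was also lost in limma with libraries scaled to the same FPKM sum over all genes (adjusted p = 0.249) or over nuclear genes (0.200) and with the trained groups alone (0.0942). Averaged over training, the difference was -0.26 (limma adjusted p = 0.00857), just under the fold threshold. Fundc1 was the lowest of the 10 in level. If FPKM were scaled to the fragment count, the library with the fewest Fundc1 fragments held 284 per kilobase of transcript. A count of 284 has a coefficient of variation of 5.94% from counting alone. Coding Fundc1 transcripts run from 448 to 1983 nt, so the count of the whole gene and its variation were not obtained.

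Bnip3l (NIX), a receptor also known for clearing mitochondria from maturing red blood cells, was at 44.8, 39.9 and 45.6 FPKM in sedentary WT and 33.4, 37.8 and 28.3 FPKM in sedentary strNrip1-/- libraries. The sedentary libraries did not overlap, with a difference of -0.39 (SE 0.118) that did not pass the test (limma adjusted p = 0.107). With equal FPKM sums over all genes it was -0.55 and passed (limma adjusted p = 0.0385), with the median of all genes at -0.14 and Bnip3l 0.41 below it, and over nuclear genes it was -0.31 (limma adjusted p = 0.237). The trained libraries overlapped, at 31.6 to 40.1 FPKM in WT and 33.3 to 37.0 FPKM in strNrip1-/- (log2 0.04). The summed level of 5 blood genes ranged from 456 to 1036 FPKM in sedentary WT, 496 to 1056 in sedentary strNrip1-/-, 419 to 495 in trained WT and 462 to 842 in trained strNrip1-/- libraries, with none of the 5 at 0, and their part in the Bnip3l values was not tested. A processed pseudogene of Bnip3l is annotated in GRCm38 and is not among the genes listed, so its reads could have been counted for Bnip3l.

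Pink1 was at 519.7, 524 and 522 FPKM in sedentary WT and 576, 511 and 455 FPKM in sedentary strNrip1-/- libraries, which overlapped (log2 -0.03). In trained muscle it was at 455, 397 and 493 FPKM in WT and 545, 558 and 549 FPKM in strNrip1-/- libraries. The trained libraries did not overlap, and the difference of 0.30 (SE 0.0943) did not pass the test (limma adjusted p = 0.0892). The lowest value, 397 FPKM, came from the WT trained library with the highest slow fiber sum.

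Summed markers of other cells and fibers are given beside these genes. Of 10 fast fiber genes, 9 had lower values in strNrip1-/- libraries in both training states, with 1 called in each, and the summed level was 134466 to 149843 FPKM in sedentary WT, 100983 to 136794 in sedentary strNrip1-/-, 130715 to 156565 in trained WT and 115498 to 120244 in trained strNrip1-/- libraries. Endothelial genes, 6 in number, summed to 70.6 to 78.8 FPKM in sedentary WT and 80.3 to 92.8 in sedentary strNrip1-/- libraries, and to 68.5 to 82.8 and 90.8 to 93.6 FPKM after training. These sums did not overlap by genotype in either state. Of the 6 genes 0 were called at rest, 1 was called higher after training and 2 were called higher averaged over training. Adipocyte genes, also 6, summed to 12.4 to 25.5 FPKM in sedentary WT and 43.1 to 116 in sedentary strNrip1-/- libraries, which did not overlap. The trained sums, 35.1 to 76.9 FPKM in WT and 43.8 to 113 FPKM in strNrip1-/- libraries, overlapped. The median log2 difference of the 5 adipocyte genes tested was 1.30 in sedentary and 0.23 in trained muscle, and 0 were called in either state. Schwann cell genes had a median difference of -0.30 in sedentary and 0.32 in trained muscle, with sums of 105 to 151 against 79.5 to 108 FPKM at rest and 74.6 to 100.4 against 88.9 to 131 FPKM after training. Fibroblast and tendon genes had medians of 0.14 and -0.28, with sums of 337 to 369 against 359 to 449.5 FPKM at rest and 404 to 459 against 351 to 399 FPKM after training, and 0 genes of these 2 lists were called for genotype. No marker of the 5 lists was at 0 in any library, and their part in the differences of the 10 genes was not tested.

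The second comparison was of training with the sedentary state in each genotype. No gene of the 10 was called in WT (0% of all genes tested were called) or in strNrip1-/- muscle (0%), and none in the training difference averaged over genotype (0.118%). At an unadjusted p under 0.05, limma gave 3 of the 10 genes in WT (8.33% of all genes) and 2 in strNrip1-/- (12.1%). Training shares its sedentary WT libraries with the sedentary genotype comparison, so the values of both are given side by side and no agreement is drawn from them.

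In WT muscle 4 of the 10 genes had trained and sedentary libraries that did not overlap (14.3% of all genes did not), namely Mfn1, Opa1 and Dnm1l, with higher values after training, and Pink1, with lower values. The log2 differences were 0.13 for Mfn1, 0.19 for Opa1, 0.19 for Dnm1l and -0.22 for Pink1, with limma adjusted p from 0.518 to 0.633. Opa1 had a sedentary genotype difference of 0.19 from the same WT libraries, and Dnm1l one of 0.19. Bnip3l had the widest training difference in WT, -0.33 (SE 0.118, limma adjusted p = 0.492), with overlapping libraries. In strNrip1-/- muscle 2 genes did not overlap (16.9% of all genes did not): Mfn2, with a difference of 0.22 (limma adjusted p = 0.236), and Fundc1, with -0.19 (limma adjusted p = 0.346).

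**Figure D3:**
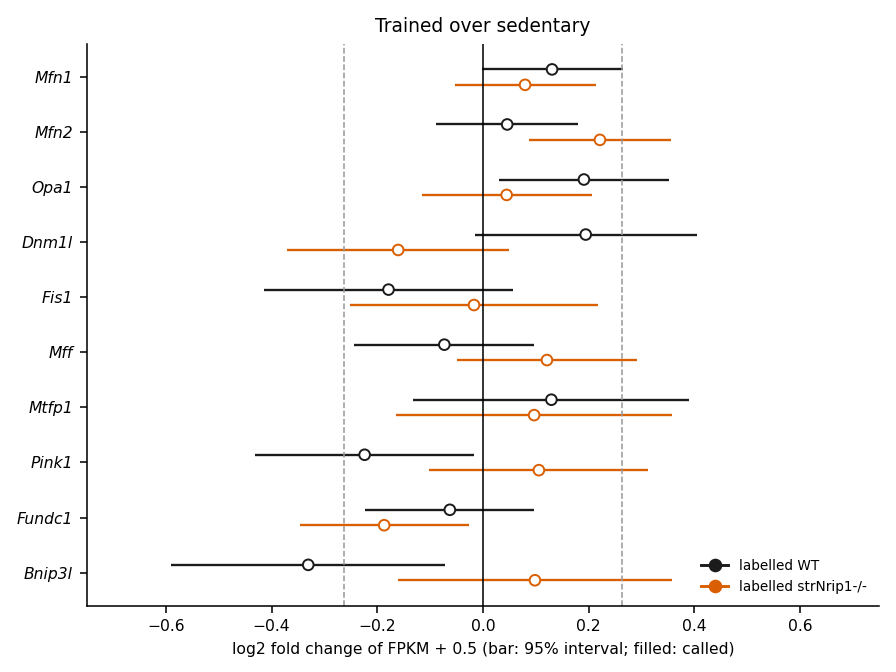
Training difference of each gene, as log2 fold change of FPKM + 0.5 with its 95% interval, in muscle labelled WT (black) and strNrip1-/- (orange), with 3 libraries per group. All circles are open because no gene was called, and dashed lines mark the 1.2-fold threshold. Bnip3l, at -0.33 in WT and 0.10 in strNrip1-/- muscle, has the widest gap between genotypes.

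Whether the genotype difference itself changed with training was tested as an interaction, for which an adjusted p under 0.05 was the rule. It called none of the 10 genes and none of the 12744 tested (0%), and 989 genes (7.76%) had an unadjusted p under 0.05 in limma. Dnm1l, Pink1 and Bnip3l were among these 989. Their interaction was -0.35 (SE 0.135) for Dnm1l, 0.33 (SE 0.133) for Pink1 and 0.43 (SE 0.167) for Bnip3l, with limma adjusted p from 0.611 to 0.626. Mfn1 had an interaction of -0.05, with a 95% interval from -0.24 to 0.14.

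Ratios within a library do not depend on how libraries are scaled, and the pairs shown were chosen after the levels had been seen. Mfn2 over Mfn1 was 2.02, 1.74 and 1.76 in sedentary WT, 1.66, 1.69 and 1.85 in trained WT, 1.51, 1.30 and 1.45 in sedentary strNrip1-/- and 1.63, 1.59 and 1.48 in trained strNrip1-/- libraries. Mfn2 thus exceeded Mfn1 in every library, by less in the strNrip1-/- libraries. Fundc1 over Pink1 was 0.0280 to 0.0287 in sedentary WT, 0.0286 to 0.0336 in trained WT, 0.0232 to 0.0277 in sedentary strNrip1-/- and 0.0197 to 0.0217 in trained strNrip1-/- libraries. For both ratios all strNrip1-/- libraries lay below all WT libraries. Each holds a gene called above for genotype, Mfn1 or Fundc1, so the separation is not independent of those calls. Dnm1l over Mfn1, also computed, separated in the same way. Bnip3l over Pink1 separated within each training state but overlapped across them, and Dnm1l over Opa1 overlapped between genotypes in both states. How often ratios of other gene pairs separate by genotype was not tested. Mff over Fis1, a pair of outer-membrane adaptors, overlapped between all groups, with means from 0.506 to 0.570.

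**Figure D4:**
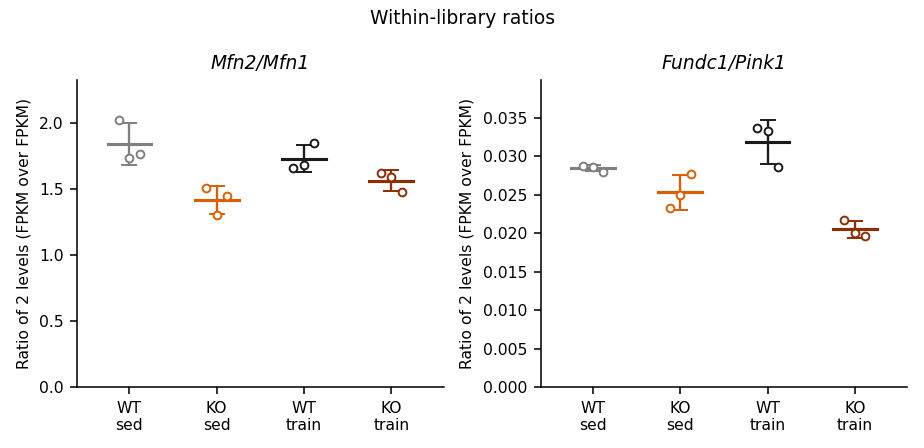
Ratio of Mfn2 to Mfn1 and of Fundc1 to Pink1 in each library (FPKM over FPKM, axes from 0), with open circles for libraries, a line for the mean and bars for the SD of 3 libraries. The strNrip1-/- libraries lie at 1.30 to 1.63 and the WT libraries at 1.66 to 2.02 for Mfn2 over Mfn1.

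The wider pathway was read from 4 lists of other genes: 18 for fusion and inner-membrane shape, 15 for fission, 27 for mitophagy and 6 for movement along microtubules. Of these, 62 were tested (1 mitophagy gene is not listed, and 1 fusion and 2 fission genes had low values). In sedentary muscle 4 were higher and 1 lower (8.06% of the 62, against 3.51% of all genes), and in trained muscle 2 were higher and 1 lower (4.84%, against 5.98%). In both training comparisons and the interaction 0 were called. All 17 tested fusion and inner-membrane genes had a value above 0 in sedentary muscle, with a median of 0.15, though 1 was called, and 12 of 17 did in trained muscle (median 0.15). The medians of the other lists lay between -0.06 and 0.09 in both states. The median of all genes was -0.001 in sedentary and 0.01 in trained muscle. With equal FPKM sums over all genes it moved to -0.14 and 0.06, and the sign counts of the fusion list under that scaling are not given.

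Afg3l2, a subunit of the inner-membrane protease that restrains Opa1 cleavage, was at 29.8 to 31.5 FPKM in sedentary WT and 38.5 to 39.6 FPKM in sedentary strNrip1-/- libraries (log2 0.35, limma adjusted p = 0.0093). Pgam5, a phosphatase of Fundc1 and Dnm1l, was at 14.5 to 14.9 against 17.1 to 19.2 FPKM (log2 0.30, adjusted p = 0.0343). Nipsnap2, which marks damaged mitochondria for autophagy, was at 336 to 379 against 426 to 518 FPKM (log2 0.42, adjusted p = 0.0443), and was also called in trained muscle (log2 0.40, adjusted p = 0.0371). Trak2, an adaptor between mitochondria and motor proteins, was at 15.5 to 17.2 against 19.0 to 25.2 FPKM (log2 0.39, adjusted p = 0.0494). These 4 rose in sedentary strNrip1-/- muscle by limma.

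Bnip3, the close relative of Bnip3l and likewise a mitophagy receptor, fell in sedentary muscle, from 130.1 to 139 FPKM in WT to 92.4 to 113 FPKM in strNrip1-/- libraries (log2 -0.40, limma adjusted p = 0.0410). In trained muscle it overlapped, at 134 to 142 and 116 to 146 FPKM. Bnip3 and Bnip3l thus each separated by genotype at rest (20.7% of all genes did) and overlapped after training, and only Bnip3 was called. The interaction called neither gene. Gdap1, an outer-membrane protein that promotes fission, fell in trained strNrip1-/- muscle, from 10.1 to 13.7 FPKM in WT to 6.03 to 9.10 FPKM (log2 -0.70, limma adjusted p = 0.0227). Trak1, the relative of Trak2, rose in trained muscle, from 84.3 to 89.7 FPKM in WT to 106 to 109.6 FPKM (log2 0.31, limma adjusted p = 0.0181). Each of these 8 calls lay close enough to the threshold to be lost in at least 1 fit that left out 1 library, with the direction kept. The Afg3l2 call was lost without WT sedentary library 1 (adjusted p = 0.0530 in limma), the Gdap1 call without WT trained library 1 or 3 or strNrip1-/- trained library 2 or 3, and the Trak1 call without WT trained library 3 or any strNrip1-/- trained library. The Pgam5, Nipsnap2, Trak2 and Bnip3 calls were each lost in 8 to 11 of the 12 fits that left out 1 library, with limma adjusted p up to 0.175, the sedentary calls without any of the sedentary WT libraries among them. With equal FPKM sums over all or over nuclear genes, all but the trained Nipsnap2 call were lost under at least 1 of these scalings. The replicate block ended the sedentary calls of Pgam5 (limma adjusted p = 0.0535) and Bnip3 (0.0589). Fitting without the variance trend ended the sedentary calls of Pgam5, Nipsnap2, Trak2 and Bnip3. Fitting without the filter ended those of Nipsnap2, Trak2 and Bnip3, with the same folds. The trained Nipsnap2 call was also lost without the trend (limma adjusted p = 0.0617) or the filter (0.0516). Quantile normalization ended the sedentary calls of Trak2 (limma adjusted p = 0.0659) and Bnip3 (0.114). With only the 2 groups compared, every call but that of Trak1 was lost, with limma adjusted p from 0.0651 to 0.187.

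**Figure D5:**
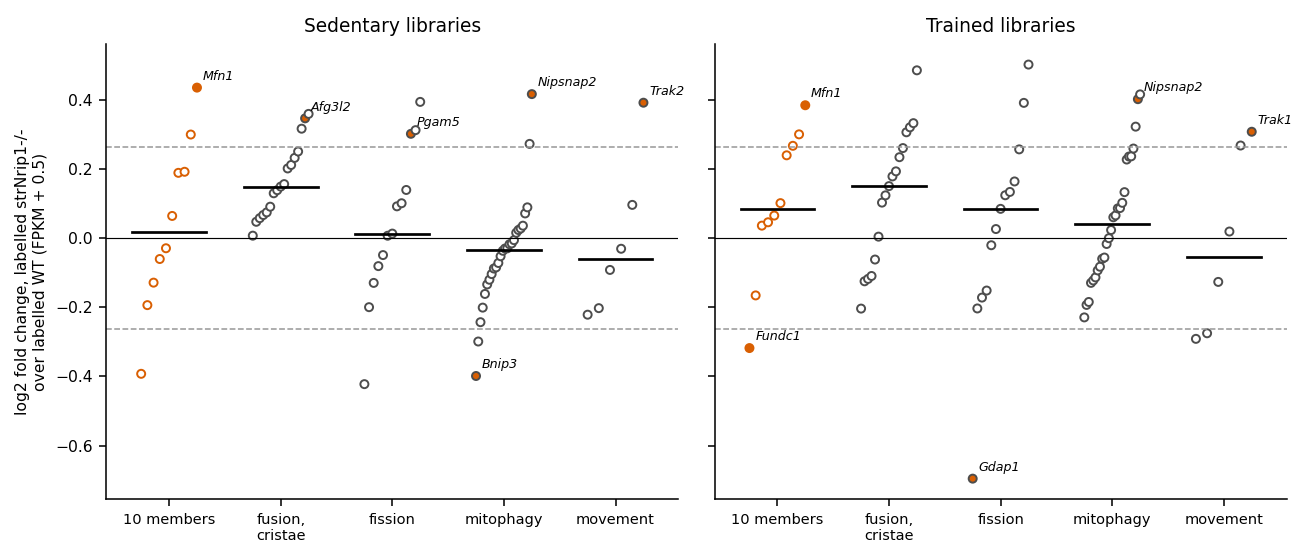
Genotype difference of each gene (log2 fold change of FPKM + 0.5) for the 10 genes and the 4 wider lists, in sedentary and trained muscle, ordered by value within a list. Each circle is 1 gene, filled where called, black lines are list medians and dashed lines mark the 1.2-fold threshold. The fusion and cristae list lies above 0 in sedentary muscle, with its median at 0.15.

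Genes for respiratory chain subunits, protein import and other mitochondrial functions, 20 in number, were chosen as a reference for mitochondrial content. Their median difference was 0.35 in sedentary and 0.41 in trained muscle. In each state 8 were called higher, against 1.92% of all genes tested in sedentary and 3.21% in trained muscle. The Mfn1 differences of 0.44 and 0.39 were close to these medians. The other 9 genes lay below the reference median in both states, from -0.39 to 0.30. The reference genes themselves ran from 0.01 to 0.62 in sedentary and from -0.01 to 0.68 in trained muscle. Mfn2, Opa1 and Mtfp1 lay within this range in both states.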

How the data were processed

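Per the labels and the methods, reads were quantified with Salmon 1.10.2 against mm10, and the authors tested them with DESeq2 1.44.0. The authors deposited 1 table of FPKM per gene and library, which was used here as it stands. How the FPKM were computed, the annotation release and the gene filter are not given in the sources used here. The table also holds the authors' own fold changes and adjusted p-values, which were not used.

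FPKM are not counts, so log2(FPKM + 0.5) was fitted with limma 3.58.1 (R 4.3.3) as 4 group means over the 12744 genes averaging 0.5 FPKM or more, with a trend in the prior variance and moderated statistics. Fold changes are on this log2 scale and understate those of low genes. Replicate numbers were not treated as pairs. The 10 genes, the wider lists, the marker lists and the tests were chosen with earlier results of these data known. The genes named were the 10, Nrip1 and every gene of the wider lists called in at least 1 comparison. The procedure was tested on simulated data with log2 changes of 0.5 or 1. These exceed every difference of the 10 genes in the main fit, and recovery of smaller changes was not tested. Alternatives were the pseudocount, the filter, other scalings, no variance trend, fits of only 2 groups, a replicate block and leaving out each library. Labels give no batch. FPKM steps gave the depth used for scaling. Of low values in 1613 genes with 1 transcript, 99.1 to 99.8% lay within 0.15 fragments of a whole number (30.0% by chance).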

Additional observations from a re-analysis of the deposited data

How the results depend on the processing

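The call of Mfn1 held under every alternative in trained muscle and in the averaged genotype difference, and in sedentary muscle under all but the equal FPKM sum given above. In sedentary muscle 2 of the 10 genes were called with nuclear genes scaled to the same sum, and in trained muscle 1 with only the 2 groups compared and 1 to 2 with 1 library left out. Averaged over training, 2 were called with a pseudocount of 0.1, with a mean of at least 5 FPKM, with either equal sum and with the replicate block, 3 with quantile normalization, and 1 to 3 with 1 library left out. The genes added to these counts were Mtfp1 and Fundc1. Under equal sums over all genes Bnip3l replaced Mfn1 in sedentary muscle, and under either equal sum Mtfp1 replaced Fundc1 in trained muscle, so the counts there stayed at 1 and 2. Same-numbered libraries correlated above 0.1 in only 5 of 18 pairs (-0.10 to 0.24), and 4 of 12 libraries correlated best with their own number, so the replicate block stands as an alternative only.

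Small log2 differences changed sign. With equal sums over all genes, which moved the median of all genes to -0.14 (sedentary genotype), 0.16 (training, strNrip1-/-) and 0.20 (interaction), the interaction was 0.17 for Mfn1, 0.0682 for Opa1, 0.19 for Mtfp1 and 0.0878 for Fundc1, the sedentary genotype difference was -0.0916 for Mfn2 and -0.0592 for Trak1, the averaged genotype difference was -0.0331 for Dnm1l and -0.0253 for Fis1, the training difference in strNrip1-/- was 0.0119 for Dnm1l and 0.16 for Fis1, and the averaged training difference was 0.00714 for Pink1. With equal sums over nuclear genes the sedentary genotype difference was 0.0203 for Fis1 and 0.0517 for Pink1, and the averaged one 0.0274 for Mff. Under these scalings 18.6% and 82.7% of the genes called in sedentary muscle were higher (main 54.8%), 80.9% and 75.8% in trained muscle (main 53.7%), and 45.0% and 77.5% in the averaged difference (main 55.6%).

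With 1 library left out, the averaged genotype difference ranged from -0.0274 to 0.0625 for Dnm1l, from -0.0269 to 0.0685 for Fis1 and from -0.0603 to 0.00819 for Mff. The sedentary genotype difference ranged from -0.16 to 0.0267 for Fis1 and from -0.11 to 0.0554 for Pink1. The trained genotype difference ranged from -0.0230 to 0.15 for Bnip3l and from -0.16 to 0.00630 for Bnip3. The training difference in strNrip1-/- ranged from -0.10 to 0.0790 for Fis1 and from -0.00885 to 0.20 for Bnip3l, the averaged training difference from -0.0332 to 0.0567 for Dnm1l and from -0.00490 to 0.0636 for Mff, and the interaction of Mtfp1 from -0.13 to 0.0794. The cause of these changes was not tested.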

Other observations

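Nipsnap1, the relative of Nipsnap2 in mitophagy, was named after its values were seen. It was at 2.05 to 3.81 FPKM in sedentary WT and 2.23 to 3.23 FPKM in sedentary strNrip1-/- libraries, and at 0.796 to 1.65 and 0.615 to 1.54 FPKM after training. All 6 trained libraries lay below all 6 sedentary libraries (0.793% of all genes did not overlap in this way). The training difference averaged over genotype was -1.07 (SE 0.193), the widest of the 62 pathway genes tested, and did not pass the test (limma adjusted p = 0.0675). Over 20 alternatives it ranged from -1.33 to -0.86 with limma adjusted p from 0.0163 to 0.170, and it passed in 1 of them, without WT trained library 1 (-1.16).

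Fundc2, the relative of Fundc1, was also named after its values were seen. It was at 83.4 to 93.4 FPKM in trained WT and 65.5 to 75.6 FPKM in trained strNrip1-/- libraries, which did not overlap, and at 82.0 to 91.7 and 76.4 to 88.6 FPKM at rest, which did.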
